A study of Mus musculus with 23 samples.

Results

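The 6 genes described here, Cd4, Cd55, Sgce, Ecm1, Jaml and Prss23, were found by symbol among the 33280 genes of the count table, and all 6 had counts. They had been picked because their measured levels parted tdT+ from tdT- sdCAMs. These subdural CNS-associated macrophages sit in the leptomeninges and around brain vessels and carry CD206. Every difference that involves tdT+ cells is therefore given as a description, with no test. They were listed as genes low in monocyte-derived sdCAMs, but of the 6 only Cd4, Cd55, Sgce and Ecm1 were lower in tdT+ than in tdT- sdCAMs, and Jaml and Prss23 were higher.

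All animals were Ccr2creERT2/+ R26tdT/tdT mice, in which tamoxifen switches on the red protein tdTomato (tdT) in cells that use the Ccr2 promoter at that time, and in their descendants. Ccr2 encodes a chemokine receptor of classical monocytes. BLZ945, which blocks the CSF-1 receptor and so removes macrophages from the brain, was given by gavage at 200 mg/kg for 7 days, and CTL mice were given vehicle. By the labels, tamoxifen (2 mg per day) followed from the last gavage on. A stroke was induced 8 weeks later with thrombin in the middle cerebral artery, and cells were sorted 1 day after it from coronal brain slices without choroid plexus.

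The groups were microglia (MG, CD206-negative) of CTL mice (n = 5 libraries) and of BLZ945 mice (n = 5), tdT- sdCAMs of CTL mice (n = 5) and of BLZ945 mice (n = 5), and tdT+ sdCAMs of BLZ945 mice (n = 3). Libraries were named F1, F2, F3, M1 and M2 in each group, and the tdT+ libraries were F2, F3 and M2. CTL libraries held 1 animal each. By the library names, BLZ945 libraries held 2 animals each, apart from those named F2 with 1 (the methods describe pools of 2 throughout), so pooling went with treatment. The animal number of F2 recurs in the BLZ945 pool M1, so that these libraries may share an animal. The 5 BLZ945 libraries of a population may then not be independent, and the p-values that rest on them may be too small. A tdT- cell of a BLZ945 mouse could be a survivor, or a cell whose precursor was not labelled during tamoxifen, and these libraries cannot tell them apart. In bulk RNA, fewer cells that express a gene and less RNA per cell cannot be told apart either.

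Total counts per library ran from 9433960 to 13276081. A floor of 3 counts in a library corresponded to 0.23 to 0.331 CPM, the count scaled to a common library size with TMM factors. Intervals and floors cover counting error only, because the reads carried no molecular identifiers. Of the MG markers, P2ry12 lay at 2928 CPM or more in each MG library and at 441.0 CPM or less in each sdCAM library, and Tmem119 at 2072 CPM or more and 122.9 CPM or less. The 6 sdCAM markers (Pf4, Mrc1 and Lyve1 among them) summed to 8410 CPM or more in sdCAM libraries and to 47.8 CPM or less in MG. The reporter locus transcript Gt(ROSA)26Sor lay between 29.5 and 42.3 CPM in tdT+ libraries, and at 10.5 CPM or less in all others.

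Subdural CNS-associated macrophages arise in the embryo and maintain themselves, unlike those of the dura mater, which are in large part renewed from the bone marrow. After depletion, monocytes can fill the subdural niche too. Long-lived resident macrophages of many mouse tissues carry scavenger and recognition receptors such as TIM-4 and CD163, and in the gut some also carry CD4. Of the genes described here, Cd4 encodes the co-receptor of helper T cells that binds MHC class II, and Cd55 encodes decay-accelerating factor, a membrane protein that dissolves complement convertases. Sgce encodes epsilon-sarcoglycan, a membrane glycoprotein of an imprinted gene. Ecm1 encodes a secreted matrix glycoprotein, Jaml an immunoglobulin-type adhesion molecule of leukocytes, and Prss23 a secreted serine protease.

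Promoters are shown for Cd55 and Ecm1, which were lower in tdT+ sdCAMs, and for Jaml, which was higher, since the data move these genes in opposite directions. The sequences are those of RefSeq on GRCm38.p6, from 250 bases before the start of transcription to 50 after it. Entries were found for 4 of the 6 genes: Cd55, Ecm1 and Jaml with 1 start each, and Prss23 with 7. Capitals mark the letters GAGGAA (a PU.1-like core), TGCTGA (a core of MAF sites) and TATAAA on either strand.
Cd55 (chr1:130462695-130462994, minus strand): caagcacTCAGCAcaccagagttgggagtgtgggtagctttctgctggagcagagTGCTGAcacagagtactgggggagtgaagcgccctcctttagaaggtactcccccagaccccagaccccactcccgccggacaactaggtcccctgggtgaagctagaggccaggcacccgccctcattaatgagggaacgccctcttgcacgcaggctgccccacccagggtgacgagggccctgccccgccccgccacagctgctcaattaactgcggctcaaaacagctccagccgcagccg
Ecm1 (chr3:95739520-95739819, minus strand): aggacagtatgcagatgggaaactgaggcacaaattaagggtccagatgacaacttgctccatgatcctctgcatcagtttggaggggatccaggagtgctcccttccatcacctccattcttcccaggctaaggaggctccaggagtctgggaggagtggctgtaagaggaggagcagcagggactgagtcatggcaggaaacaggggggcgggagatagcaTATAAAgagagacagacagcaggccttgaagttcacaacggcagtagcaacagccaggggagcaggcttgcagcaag
Jaml (chr9:45078933-45079232, plus strand): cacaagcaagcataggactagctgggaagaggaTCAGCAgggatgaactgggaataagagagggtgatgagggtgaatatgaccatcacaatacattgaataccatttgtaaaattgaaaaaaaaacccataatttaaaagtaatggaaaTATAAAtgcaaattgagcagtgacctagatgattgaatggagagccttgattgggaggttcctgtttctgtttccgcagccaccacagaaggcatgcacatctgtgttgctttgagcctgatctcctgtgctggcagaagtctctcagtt

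TGCTGA stood in Cd55 243 bases before the start on the opposite strand and 195 bases before it on the same strand, and in Jaml 217 bases before the start on the opposite strand. Of 32851 promoters of this length, 19.5% held it. TATAAA began 27 bases before the start of Ecm1 and 100 bases before that of Jaml, against 13.6% of promoters that held it. GAGGAA was in none of the 3 sequences and in 1 of the 7 Prss23 windows, 163 bases before that start (28.3% of promoters). CpG pairs numbered 12 in Cd55, 2 in Ecm1 and 1 in Jaml, against a median of 7 over all promoters (quartiles 3 and 20). These letter matches describe the windows and say nothing about binding.

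The first question was how each gene stood across the 5 groups. Cd4 was high in tdT- sdCAMs of both treatments and near 0 in the other groups. In tdT- CTL sdCAMs it reached 80.7 CPM in F1, 122 in F2, 101 in F3, 89.1 in M1 and 103 in M2. In tdT- BLZ945 sdCAMs it reached 35.3 CPM in F1, 39.7 in F2, 31.5 in F3, 41.5 in M1 and 68.8 in M2. The group means were 99.1 ± 15.6 CPM (SD, n = 5) and 43.4 ± 14.8 CPM (SD, n = 5), and every BLZ945 library lay below every CTL library.

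In tdT+ sdCAMs Cd4 was 2.22 CPM in F2, 1.09 in F3 and 2.60 in M2, from 23, 11 and 26 counts. The tdT+ mean lay 22.0-fold below the tdT- BLZ945 mean. Within the same animal or pool the ratio was 17.9-fold in F2, 29.0-fold in F3 and 26.5-fold in M2. The 3 tdT+ libraries were all below the lowest tdT- library, yet all above the highest MG library.

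In MG, Cd4 was at 0 counts in 8 of 10 libraries, with 3 counts in MG CTL F2 and 10 counts in MG BLZ945 F1. The ratio of summed counts, corrected for library size, was 243 between tdT- BLZ945 sdCAMs and MG BLZ945 (95% exact interval 132 to 507), and it rests on that 1 MG library. The order was therefore tdT- CTL, tdT- BLZ945, tdT+, MG, and only the MG groups overlapped each other. The 11 T cell markers in the table summed to 19.6 CPM in tdT- BLZ945 F1, to 10.8 CPM or less in the other sdCAM libraries, and to 16.2 to 57.6 CPM in MG, mostly Il7r. Cd3e reached at most 0.0775 CPM in tdT- CTL and 2.14 CPM in tdT- BLZ945 F1, where Trbc2 was at 3.32 and Cd2 at 2.04 CPM. The list summed to 0.586 CPM or less in the other 4 tdT- BLZ945 libraries, and Cd8a was at 0 in all 23 libraries. In contrast, the 6 dendritic cell markers, mostly Cd209a, summed to 222 to 782 CPM in tdT- CTL, 31.1 to 164 CPM in tdT- BLZ945 and 34.7 to 88.3 CPM in tdT+ sdCAMs. By the methods, the sort took only CD11c-negative cells, a gate against dendritic cells. Itgax, which encodes CD11c, was at 0 in all 5 tdT- CTL libraries, reached 9.75 CPM in tdT- BLZ945 and 3.76 CPM in tdT+ sdCAMs, and averaged 11.9 CPM in MG CTL. Xcr1 was at 0 in all 13 sdCAM libraries, and Clec9a reached at most 0.488 CPM there. Flt3 reached 4.63 CPM in tdT- CTL, 13.9 CPM in tdT- BLZ945 and 4.25 CPM in tdT+ sdCAMs. Zbtb46 lay between 11.6 and 25.8 CPM in tdT- CTL, 7.17 and 20.7 CPM in tdT- BLZ945, and 10.6 and 18.7 CPM in tdT+ sdCAMs. The part of such cells in the Cd4 levels was not tested.

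Cd55 followed the same pattern with more spread. In tdT- CTL sdCAMs it was 93.2 CPM in F1, 109 in F2, 52.0 in F3, 122 in M1 and 93.4 in M2. In tdT- BLZ945 sdCAMs it was 62.8 CPM in F1, 33.1 in F2, 34.5 in F3, 98.4 in M1 and 73.9 in M2. The 2 groups overlapped, with means of 93.9 ± 26.3 CPM (SD, n = 5) and 60.5 ± 27.6 CPM (SD, n = 5).

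In tdT+ sdCAMs Cd55 was 0.482 CPM in F2, 2.97 in F3 and 4.10 in M2. These were all below the lowest tdT- library, and the means differed 24.1-fold in BLZ945 mice. The same-animal ratios were spread more widely than for Cd4, from 11.6-fold in F3 to 68.6-fold in F2, and the F2 value rested on 5 counts in the tdT+ library. In MG, Cd55 had 8 counts in CTL M1, 10 counts in BLZ945 F3 and 0 in the other 8 libraries, so that the tdT+ range overlapped that of MG. Cd55b, a near-identical neighbouring copy that could share reads with Cd55, stayed at 0.0911 CPM or less in all libraries.

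Sgce differed from Cd4 and Cd55 in that microglia had the highest level. It was 199 CPM in MG CTL F1, 192 in F2, 182 in F3, 174 in M1 and 143 in M2. In MG BLZ945 it was 175 CPM in F1, 183 in F2, 168 in F3, 155 in M1 and 139 in M2. These groups overlapped almost fully.

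In tdT- CTL sdCAMs Sgce was 96.3 CPM in F1, 108 in F2, 99.6 in F3, 98.7 in M1 and 112 in M2. In tdT- BLZ945 sdCAMs it was 78.6 CPM in F1, 148 in F2, 88.6 in F3, 88.4 in M1 and 96.9 in M2. The means were close, at 102.9 ± 6.68 CPM (SD, n = 5) and 100.1 ± 27.6 CPM (SD, n = 5), and F2 stood above the rest in the BLZ945 group.

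In tdT+ sdCAMs Sgce was 20.7 CPM in F2, 8.01 in F3 and 20.3 in M2. The tdT+ mean lay 6.13-fold below that of tdT- BLZ945, with no overlap. Sgce was thus the one gene of the 6 whose level was lower in tdT+ sdCAMs than in each of the other 4 groups without overlap.

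Ecm1 was high in every sdCAM group and low in MG. In tdT- CTL sdCAMs it was 134 CPM in F1, 145 in F2, 142 in F3, 214 in M1 and 171 in M2. In tdT- BLZ945 sdCAMs it was 101 CPM in F1, 186 in F2, 88.1 in F3, 135 in M1 and 217 in M2. The means of 161 ± 32.5 CPM (SD, n = 5) and 145 ± 55.3 CPM (SD, n = 5) belonged to overlapping groups.

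In tdT+ sdCAMs Ecm1 was 63.8 CPM in F2, 39.0 in F3 and 39.8 in M2, below all tdT- libraries. The means differed 3.06-fold in BLZ945 mice, which was the smallest difference among the 4 genes that were lower in tdT+ cells. Against MG BLZ945, the tdT+ mean of Ecm1 was 8.92-fold higher. MG libraries ranged from 1.19 to 5.90 CPM in CTL and from 2.67 to 8.74 CPM in BLZ945 mice.

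Jaml ran in the opposite direction. In tdT- CTL sdCAMs it was 25.6 CPM in F1, 20.6 in F2, 10.1 in F3, 6.45 in M1 and 6.33 in M2. In tdT- BLZ945 sdCAMs it was 55.3 CPM in F1, 53.2 in F2, 61.3 in F3, 19.1 in M1 and 10.5 in M2. The groups overlapped through the M libraries, with means of 13.8 ± 8.79 CPM (SD, n = 5) and 39.9 ± 23.3 CPM (SD, n = 5).

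In tdT+ sdCAMs Jaml was 166 CPM in F2, 319 in F3 and 73.6 in M2, above every tdT- library. The means lay 4.67-fold above tdT- BLZ945 and 13.5-fold above tdT- CTL, and the same-animal ratios were 3.11-fold in F2, 5.21-fold in F3 and 7.03-fold in M2. In MG it had at most 4 counts per library in CTL and at most 12 counts in BLZ945 mice. Library tdT+ F3, the highest for Jaml, also held 1730 CPM of choroid plexus markers, mostly Ttr, against 0 in the other tdT+ libraries. The other libraries of pool F3 held them too, at 152 CPM in tdT- BLZ945 and 547 CPM in MG BLZ945, against at most 24.7 and 7.80 CPM in the other libraries of those groups. The F3 same-pool ratio of each gene uses that tdT- library. Without tdT+ F3 the Jaml difference to tdT- BLZ945 on the log2(CPM + 1) scale was 1.72 in place of 2.23.

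Within each sdCAM group, the libraries named F exceeded those named M for Jaml. The F libraries ranged from 10.1 to 25.6 CPM and the M libraries from 6.33 to 6.45 CPM in tdT- CTL. In tdT- BLZ945 the ranges were 53.2 to 61.3 CPM and 10.5 to 19.1 CPM. In tdT+ sdCAMs the 2 F libraries lay above the only M library. Of 12257 genes with a mean of at least 1 CPM in sdCAMs, 0.4% showed F above M without overlap in all 3 groups, and Jaml was the only one of the 6 genes that did. The pattern was noticed in the data and was not tested.

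**Figure D1:**
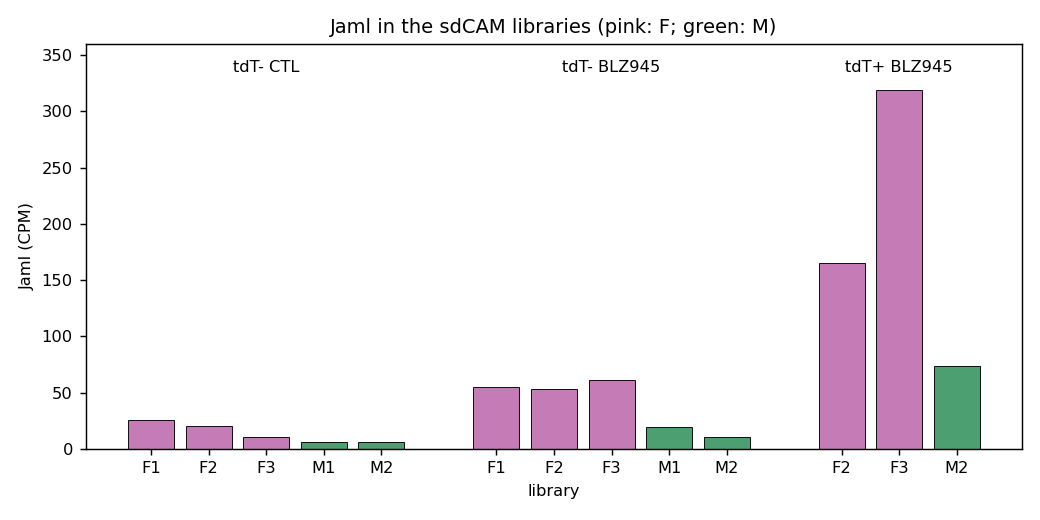
CPM of Jaml (y axis, linear from 0) in each of the 13 sdCAM libraries, grouped by population and treatment, with F libraries in pink and M libraries in green. In each group the M libraries have the lowest bars, and the tallest bar is tdT+ F3 at 319 CPM.

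Prss23 was low everywhere, and its counts set it apart in another way. It had 0 counts in all 5 tdT- BLZ945 libraries, whereas the floor there averaged 0.308 CPM. In tdT- CTL sdCAMs it was 0.842 CPM in F1, 2.09 in F2, 3.01 in F3, 3.03 in M1 and 1.54 in M2, from 10 to 39 counts. In tdT+ sdCAMs it was 4.34 CPM in F2, 3.07 in F3 and 4.00 in M2, from 31 to 45 counts.

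Against the floor of 3 counts per library, Prss23 was at least 12.3-fold higher in tdT+ than in tdT- BLZ945 sdCAMs. The tdT+ and tdT- CTL groups did not overlap either, but only just, with 3.07 CPM as the lowest tdT+ value and 3.03 CPM as the highest tdT- CTL value. MG CTL libraries ranged from 0 to 2.96 CPM and MG BLZ945 libraries from 0.0835 to 0.909 CPM, overlapping each other. Of 12066 genes seen in every tdT- CTL library, 0.157% were at 0 in all 5 tdT- BLZ945 libraries. Among the 10730 of them with a mean at or above that of Prss23, the share was 0.0652%, or 7 genes. Of the B cell markers, Cd79b lay between 24.6 and 38.7 CPM in tdT- CTL, at 6.27 CPM or less in tdT- BLZ945 and between 11.3 and 50.3 CPM in tdT+ sdCAMs, and so was lowest in the same sdCAM group as Prss23. In MG it lay between 28.8 and 48.1 CPM in CTL and at 9.69 CPM or less in BLZ945 mice. Cd79a was at 0 in all 13 sdCAM libraries, while Ms4a1 and Pax5 were at 0 in tdT- BLZ945 and reached 2.28 and 1.19 CPM in tdT+ sdCAMs. By the methods, the sdCAMs were sorted as CD11b-positive, CD206-positive cells. The part of B cells in the Prss23 levels was not tested.

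**Figure D2:**
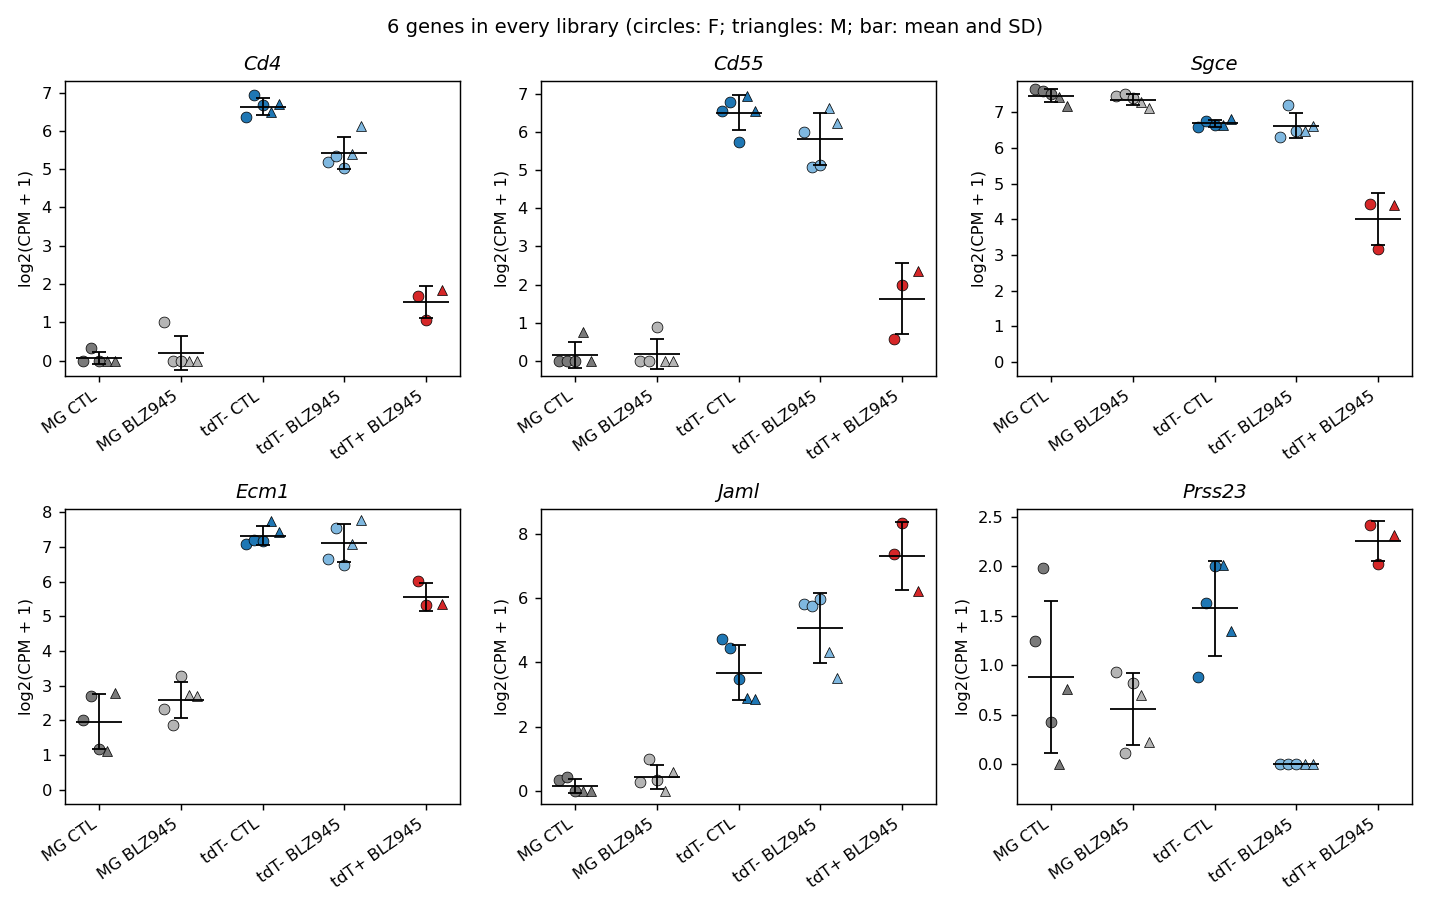
Level of each gene as log2(CPM + 1) (y axis) in every library of the 5 groups (x axis), with circles for F and triangles for M libraries and a bar for the mean with SD. Cd4 and Cd55 are high only in tdT- sdCAMs, Sgce is highest in MG and lowest in tdT+ sdCAMs, Ecm1 is high in all sdCAM groups, Jaml is highest in tdT+ sdCAMs, and Prss23 is at 0 in all 5 tdT- BLZ945 libraries.

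Set side by side, the levels of all 6 genes did not overlap between tdT+ and tdT- BLZ945 sdCAMs, 4 lower and 2 higher in tdT+. The share of all tested genes without overlap was 3.4%. The same held against tdT- CTL sdCAMs, where the share over all genes was 8.16%. Since these values chose the genes, the counts carry no weight. On the log2(CPM + 1) scale, tdT+ minus tdT- BLZ945 was -4.18 for Cd55, -3.89 for Cd4, -2.61 for Sgce and -1.55 for Ecm1, against 2.23 for Jaml and 2.25 for Prss23.

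**Figure D3:**
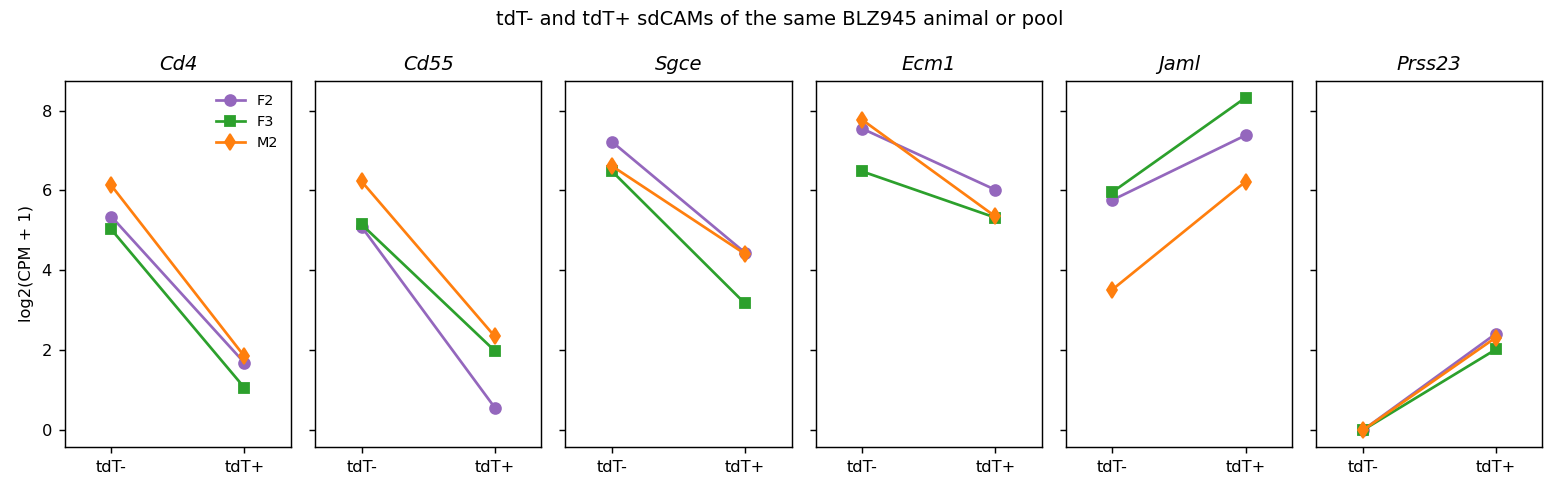
Level as log2(CPM + 1) (y axis) in tdT- and tdT+ sdCAMs (x axis) of the 3 BLZ945 animals or pools with both libraries, F2, F3 and M2, joined by lines. All 3 lines fall for Cd4, Cd55, Sgce and Ecm1, and all 3 rise for Jaml and Prss23.

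The second comparison asked how tdT- sdCAMs differed from MG of the same treatment. It rested on tdT- and MG libraries, in a model of 20 libraries (edgeR quasi-likelihood test, p-values adjusted by Benjamini-Hochberg over 12697 genes). In CTL mice Cd4, Cd55, Ecm1 and Jaml were higher in sdCAMs, Sgce was lower, and Prss23 was not called. Over all genes 15.3% were called higher and 10.3% lower. The tdT- libraries had also taken part in choosing the genes, through their contrast with tdT+. In addition, Cd4, Cd55, Jaml and Prss23 passed the filter on low counts only through tdT- libraries, since MG alone fell below it. A gene kept in that way and near 0 in MG, as Cd4, Cd55 and Jaml were, had to be higher in tdT- sdCAMs. The number of calls therefore carries no weight, and no p-value is given for these genes.

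Ecm1 was 5.56 higher on the log2 scale (SE 0.43, edgeR adjusted p = 1.45e-09), with all 5 sdCAM libraries above all 5 MG libraries. Sgce was 0.79 lower (log2 -0.79, SE 0.15, edgeR adjusted p = 0.000273), again without overlap. For Cd4 the ratio of summed counts was 1950 with a 95% exact interval of 668 to 9480. The ratio and the fitted fold both rest on the 3 counts in MG CTL F2. Without that library MG CTL was at 0, so that no ratio can be given.

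The same ratio in CTL mice was 708 for Cd55 (359 to 1640). It rests on the 8 counts in MG CTL M1, without which MG CTL was at 0. For Jaml the ratio was 117 (56.5 to 292). It rests on 7 counts, 4 of them in MG CTL F2, without which the fitted log2 difference went from 6.71 to 7.52. Cd55 and Jaml were above MG in every sdCAM library. Prss23 gave a log2 difference of 0.96 (SE 0.96, edgeR adjusted p = 0.543), and its groups overlapped.

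In BLZ945 mice Cd4, Cd55, Ecm1 and Jaml were called higher and Sgce and Prss23 lower in tdT- sdCAMs, and over all genes 18.3% were called higher and 14.1% lower. The same filter and choice of genes apply, with Prss23 at 0 in the tdT- libraries that helped to choose it, and nothing is read from the count. Ecm1 was 4.78 higher on the log2 scale (SE 0.41, edgeR adjusted p = 7.95e-09). Sgce was lower (log2 -0.70, SE 0.15, edgeR adjusted p = 0.000875), although its groups overlapped through F2. Prss23 was at least 1.65-fold lower than in MG, given without a p-value because its 0 counts had helped to choose it.

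The ratio of summed counts in BLZ945 mice was 342 for Cd55 (95% exact interval 186 to 715) and 99.7 for Jaml (66.2 to 158). That of Jaml rests on 23 counts, 12 of them in MG BLZ945 F2, without which its fitted log2 difference went from 6.61 to 7.29. No p-value is given for Cd4, Cd55 and Jaml, whose direction the filter had fixed here too. The ratio of Cd55 rests on the 10 counts in MG BLZ945 F3, and MG BLZ945 F1 was the only one with Cd4 counts. Monocyte markers (Ccr2 and Plac8 among them) summed to 242 CPM in tdT- BLZ945 F1 and 100 CPM in M1, against 9.37 to 22.7 CPM in the other tdT- BLZ945 libraries. Cd4, Cd55, Ecm1 and Jaml in F1 and M1 lay within the range of, or above, F2, F3 and M2 of that group. Sgce lay below them, at 78.6 CPM in F1 and 88.4 CPM in M1 against 88.6 CPM or more. Neutrophil markers summed to 74.1 CPM in F1 and to 3.07 CPM or less in the other tdT- BLZ945 libraries. The part of such cells in the levels of the genes was not tested.

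The third comparison asked whether the genes differed between BLZ945 and CTL animals within a population. In MG only Ecm1 and Sgce passed the filter on low counts. Neither was called, with log2 differences of 0.63 for Ecm1 (SE 0.48, edgeR adjusted p = 0.621) and -0.13 for Sgce (SE 0.11, edgeR adjusted p = 0.648). Over all genes 0.408% were called.

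In tdT- sdCAMs, the choice of the 6 genes had used the libraries of both groups, through their contrast with tdT+, so p-values of these genes are not independent of it. Prss23, at 0 in tdT- BLZ945, passed the filter only through the other sdCAM groups, which fixed its direction. No gene of the 6 was called, and 0 of 13076 genes were (0%), although 697 genes had an unadjusted p under 0.05 in edgeR. Cd4 was lower in BLZ945 mice (log2 -1.17, SE 0.26, edgeR adjusted p = 0.304), with no overlap between 5 and 5 libraries. DESeq2 called 56 genes, among them Cd4 at an adjusted p of 0.00954, and over all alternatives the adjusted p of Cd4 ran from 0.00954 to 0.856. Prss23, at 0 in the BLZ945 libraries, was at least 6.82-fold lower, given without a p-value because its direction was fixed.

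Jaml had a log2 difference of 1.53 between the tdT- groups (SE 0.53, edgeR adjusted p = 0.719), and Cd55 one of -0.61 (SE 0.40, edgeR adjusted p = 0.998). Ecm1 and Sgce differed by -0.13 and -0.03, less than the spread between libraries. These contrasts also compare pools with single animals. The BLZ945 effect in tdT- sdCAMs was not called as different from that in MG for any of the 6 genes, whereas 0.0394% of all genes were (5 genes, edgeR). For Cd4, Cd55 and Jaml that test rests on MG counts at or near 0.

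Genes known to work with the 6 were counted in the same fits. Their counts stand against 15.3% of all genes called higher and 10.3% lower in tdT- CTL sdCAMs, and 18.3% and 14.1% in tdT- BLZ945 sdCAMs. With so few genes in each list, nothing particular to a list is read from them, and a gene near 0 in MG could pass the filter only through sdCAMs. Among 8 ligands and relatives of CD4, 5 passed the filter, with 3 higher and 1 lower in tdT- CTL sdCAMs than in MG, and 3 higher and 2 lower in BLZ945 mice. The median log2 difference of the list was 4.05 in CTL mice, against -0.01 over all genes. The MHC class II gene H2-Ab1 averaged 842 ± 349 CPM in tdT- CTL and 1451 ± 749 CPM in tdT- BLZ945 sdCAMs (SD, n = 5 each).

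In tdT+ sdCAMs H2-Ab1 averaged 3075 ± 1089 CPM (SD, n = 3), and in MG CTL 50.7 ± 14.9 CPM (SD, n = 5). The means of H2-Ab1 were thus ordered over the sdCAM groups like those of Jaml and not like those of Cd4. Unlike for Jaml, the tdT+ libraries (1837 CPM or more) overlapped those of tdT- BLZ945 (up to 2441 CPM). Lag3, a relative of Cd4 that also binds class II, was a microglial gene here, with a mean of 47.9 ± 8.36 CPM in MG CTL against 1.29 ± 1.03 CPM in tdT- CTL sdCAMs (SD, n = 5 each). It was called lower in sdCAMs of both treatments (edgeR adjusted p = 2.32e-08 and 9.27e-09), whereas Cd4 was higher in tdT- sdCAMs than in MG.

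Of 13 complement regulators, 8 passed the filter, with 4 higher and 0 lower in tdT- CTL sdCAMs and 3 higher and 0 lower in BLZ945 mice. Their median log2 difference in CTL mice was 2.11. Vsig4, a complement receptor of the immunoglobulin family, lay between 11.5 and 37.8 CPM in the 5 tdT- CTL libraries, was at 0.0849 CPM or less in each MG CTL library and was called higher (edgeR adjusted p = 4.76e-06). In tdT+ sdCAMs Vsig4 averaged 7.05 ± 3.09 CPM (SD, n = 3), inside the range of 0.541 to 62.5 CPM of the tdT- BLZ945 libraries. Cr1l, which like Cd55 protects cells from complement at the membrane, lay between 133 and 171 CPM on average in every group and was not called in any tested comparison.

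Adgre5, which encodes the adhesion receptor CD97 that binds CD55, averaged 11.1 ± 6.59 CPM in tdT- CTL sdCAMs against 0.542 ± 0.713 CPM in MG CTL (SD, n = 5 each). It was called higher in sdCAMs of both treatments (edgeR adjusted p = 0.00832 and 0.00363). Its tdT+ libraries ranged from 1.58 to 20.1 CPM and overlapped those of tdT- BLZ945.

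Among 14 genes of the sarcoglycan and dystroglycan complex, 9 passed the filter, with 1 higher and 1 lower in tdT- CTL sdCAMs and 2 higher and 1 lower in BLZ945 mice, a share near that of all genes. Their median log2 difference in CTL mice was 0.45. Sgcb, the beta subunit, averaged 48.6 ± 3.26 CPM in MG CTL against 24.2 ± 9.44 CPM in tdT- CTL sdCAMs (SD, n = 5 each), and was called lower there (edgeR adjusted p = 0.0299), but not in BLZ945 mice (log2 difference -0.43, edgeR adjusted p = 0.340). In tdT+ sdCAMs Sgcb averaged 27.2 ± 9.04 CPM (SD, n = 3), within the tdT- BLZ945 range of 10.4 to 63.1 CPM. Of the imprinted and neighbouring genes of Sgce, 5 of 6 passed, with 0 higher and 2 lower in tdT- CTL and 1 lower in tdT- BLZ945 sdCAMs, and a median of -0.47 in CTL mice.

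Peg10, the imprinted gene next to Sgce, averaged 1.05 to 2.78 CPM in the 5 groups and was not called. Pon3, an enzyme of the paraoxonase family encoded nearby, was lower in sdCAMs of both treatments (edgeR log2 difference -0.47, adjusted p = 0.0176 in CTL mice). It averaged 114 ± 14.7 CPM (SD, n = 3) in tdT+ sdCAMs, and these libraries overlapped those of tdT- BLZ945 at 140 ± 25.2 CPM (SD, n = 5).

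Of 10 partners of ECM1 and basement membrane genes, 6 passed the filter, with 1 higher and 0 lower in tdT- CTL sdCAMs and 1 higher and 1 lower in BLZ945 mice, a share near that of all genes. Their median log2 difference in CTL mice was 1.62. The gene that was higher in both was Mmp9, a matrix protease that ECM1 can bind. Mmp9 averaged 118 ± 34.2 CPM (SD, n = 5) in tdT- CTL sdCAMs against 0.307 ± 0.636 CPM (SD, n = 5) in MG CTL. Its tdT+ mean was 104 ± 6.99 CPM (SD, n = 3). In MG, the list held 1 gene called higher in BLZ945 mice, Fn1 (fibronectin), with a log2 difference of 2.30 (edgeR adjusted p = 0.0124).

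Among 14 genes of the JAM family, its ligands and integrins, 12 passed the filter, with 3 higher and 6 lower in tdT- sdCAMs of both treatments and a median log2 difference of -0.14 in CTL mice. F11r, which encodes JAM-A, averaged 1072 ± 179 CPM in MG CTL against 57.1 ± 18.7 CPM in tdT- CTL sdCAMs (SD, n = 5 each; edgeR log2 difference -4.24, adjusted p = 1.12e-08). Vcam1, a vascular adhesion molecule also found on macrophages, was higher in sdCAMs by 5.76 on the log2 scale (edgeR adjusted p = 4.63e-10). Cxadr, the receptor that JAML binds, averaged 0.843 CPM or less in every group.

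Of 14 trypsin-like Prss genes, 2 passed the filter, and Prss16, a protease best known from the thymus, was called higher in tdT- sdCAMs of both treatments. It averaged 5.17 ± 5.35 CPM (SD, n = 5) in tdT- CTL, with at least 1 library at 0 in each sdCAM group. Prss35, the nearest relative of Prss23, was seen in 2 libraries, at 2.97 CPM in tdT+ F3 and 0.0852 CPM in a MG CTL library. In tdT- BLZ945 against tdT- CTL sdCAMs, no gene of these lists was called.

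The last comparison described which genes varied most like the 6 over libraries, among 8803 genes at an average log2 CPM of at least 3. Over all 23 libraries, Pearson's r of log2(CPM + 1) was highest for Cd4 with Cd209b (0.984), Cd55 (0.979) and C2 (0.973). For Cd55 it was highest with Cd4, Cd209b (0.978) and Timd4 (0.976), which encodes the phosphatidylserine receptor TIM-4. These values come largely from the gap between populations, and the libraries share animals.

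Over the 13 sdCAM libraries, Cd4 was most like Colec12 (0.982), a scavenger receptor gene, Cd209b (0.979) and Timd4 (0.947). Cd55 was most like Timd4 (0.973), Cd163 (0.963) and Cd4 (0.947). Sgce was most like Cd209b (0.961), Tcim (0.96) and Smim1 (0.944). Ecm1 was most like Epb41l3 (0.952), Cd209f (0.933) and Smim1 (0.929). Reads of the near-identical Cd209 genes could have been split or lost in counting.

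Jaml was most like Selenos (0.921), Hfe (0.9), an iron-control gene of the MHC class I type, and Cd74 (0.894), the invariant chain of class II. Prss23 was most like Ulk1 (0.852), Cdh23 (0.84) and Chid1 (0.832). Hfe and Cd74 were also among the 3 genes most like Jaml over all 23 libraries, at 0.961 and 0.958. For Prss23 the highest value over all libraries was only 0.712, with Chid1.

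Among the 6 genes, Cd4, Cd55, Sgce and Ecm1 varied together over the 13 sdCAM libraries, with r from 0.835 to 0.947, and Jaml varied against each of them, from -0.779 to -0.878. With MG included, r of Cd4 with Sgce was -0.123 in place of 0.939, since MG had Sgce without Cd4. Likewise r of Ecm1 with Jaml was 0.744 in place of -0.842, since both were low in MG. These values describe the same differences that chose the genes.

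**Figure D4:**
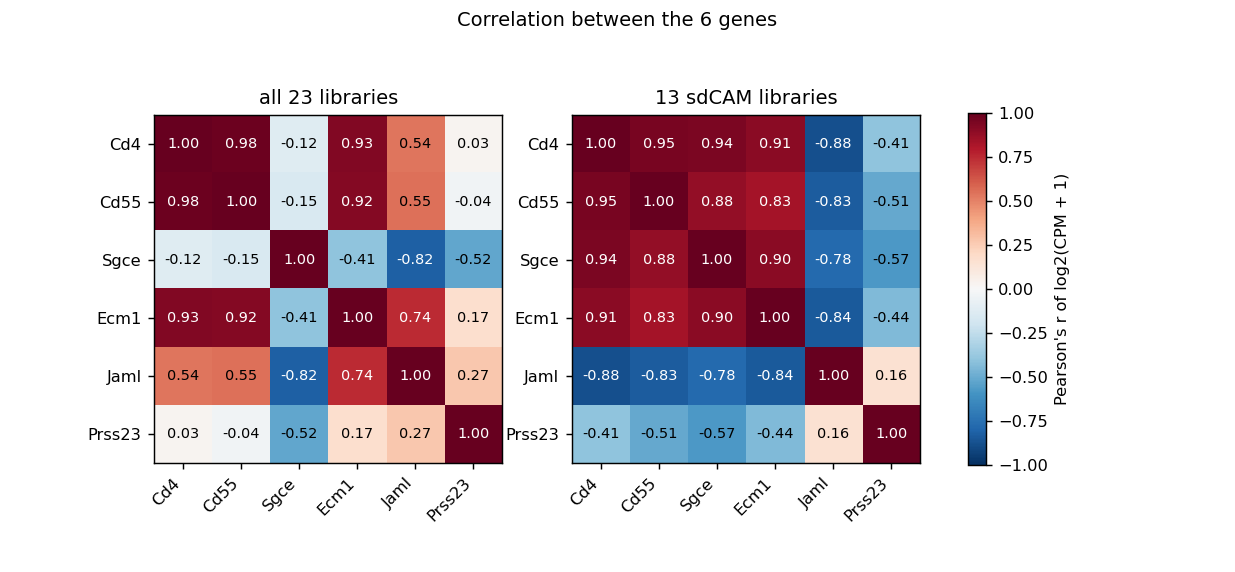
Pearson's r of log2(CPM + 1) between the 6 genes over all 23 libraries (left) and over the 13 sdCAM libraries (right), as colour and number. Cd4, Cd55, Sgce and Ecm1 form 1 block of high positive values on the right, which Sgce leaves on the left.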

How the data were processed

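RNA was sequenced from sorted cells in 23 libraries. The authors deposited raw, whole-number counts of reads for each gene symbol. Their processing notes name STAR 2.7.11a and featureCounts 2.0.6. The genome build of the table was not clear, so no coordinates come from it. How reads that match several genes or lie on either strand were counted is not given in the sources used here.

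Tests on these counts were run in R 4.3.3 with edgeR 4.0.16 (TMM factors, filterByExpr, quasi-likelihood test, Benjamini-Hochberg, called under 0.05). MG were fitted in 10 libraries, sdCAM treatments in 13, and sdCAMs against MG and the interaction in 20. DESeq2 1.42.0, other scaling factors and filters, other sets of libraries in the model, a replicate block and leaving out each library were alternatives. CPM used TMM factors over 23 libraries. Intervals are exact binomial at 95% (scipy 1.17.1), and floors are 3 counts per library. The tests were checked on simulated counts.

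The genes and lists were chosen with earlier results of these data known. All 6 genes are described. Of each list, up to 4 genes with the highest mean CPM could be named, plus Cd55b, Adgre5, Lag3, Prss35 and Cxadr. Cd3e, Cd2, Cd8a, Xcr1, Clec9a and Peg10 were named outside that rule, after their values were seen. For likeness, the 3 genes with the highest r and a symbol not that of a predicted gene are given. Libraries of the same name within a treatment came from the same animal or pool, and their deviations from group means correlated at 0.0308 to 0.134 (MG and tdT-) and 0.0351 to 0.0755 (tdT- and tdT+). P-values measure the spread between these libraries.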

Additional observations from a re-analysis of the deposited data

Results flagged for a closer look

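Within groups of 5 libraries, 6 libraries lay far from the rest for 1 of the genes, among 23 groups tested. The rule for this marks about 1 in 20 groups by chance only where values follow a normal curve. A group with counts in 1 library and 0 in the others is always marked, so no excess over chance is read. In microglia these were single libraries with counts where the other 4 had 0: Cd4 in MG CTL F2 at 0.261 CPM (3 counts) and MG BLZ945 F1 at 1.01 CPM (10 counts), and Cd55 in MG CTL M1 at 0.679 CPM (8 counts) and MG BLZ945 F3 at 0.849 CPM (10 counts). In tdT- BLZ945 sdCAMs, Cd4 was high in M2 at 68.8 CPM and Sgce was high in F2 at 148 CPM, where the library held 1 animal. Without tdT- BLZ945 F2, Sgce in BLZ945 mice remained lower in sdCAMs than in MG.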

How the results depend on the processing

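The calls of Ecm1 and Sgce between tdT- sdCAMs and MG held under all 17 alternatives in CTL mice and all 18 in BLZ945 mice, the replicate block among them. Prss23 stayed without a call under all 17 in CTL mice. For Cd4, Cd55 and Jaml, and for Prss23 in BLZ945 mice, the filter or the choice of genes had fixed the outcome. Nothing is read from the stability of their calls. Between the tdT- groups, none of the 6 was called by edgeR. DESeq2 called Cd4 and Prss23, and the model of all 23 libraries called Prss23, whose direction was fixed. Over all genes, edgeR, DESeq2 and that model called 0, 56 and 29 genes. The cause was not tested.

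The pseudocount moved differences of low genes by construction. At a pseudocount of 5, tdT+ minus tdT- BLZ945 was -2.76 for Cd4, -3.05 for Cd55 and 0.813 for Prss23, and tdT+ minus tdT- CTL was -3.90 for Cd4 and -3.70 for Cd55. At 0.5 the Prss23 difference to tdT- BLZ945 was 3.09. In the 3 animals or pools with both libraries (replicate block), Cd4 differed by -3.97 and Jaml by 2.23.

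Of the log2 differences that were not called, 6 changed sign when 1 library was left out. Between the tdT- groups, Sgce ran from -0.21 to 0.049 and Ecm1 from -0.34 to 0.0052. With both BLZ945 libraries named M1 left out, a setting chosen after seeing the data because an animal number recurs in the names of M1 and F2, Sgce was at 0.015. For the difference of BLZ945 effects, Cd4 ran from -5.29 (without MG CTL F2) to 1.31 (without MG BLZ945 F1), Cd55 from -4.69 (without MG CTL M1) to 3.10 (without MG BLZ945 F3), Jaml from -0.91 to 0.58 and Sgce from -0.077 to 0.17. The single MG libraries with counts also set the fitted log2 folds of sdCAMs over MG. Without MG CTL F2 the fold of Cd4 went from 10.64 to 13.12 and that of Jaml from 6.71 to 7.52. Without MG CTL M1 that of Cd55 went from 9.32 to 13.04. In BLZ945 mice Cd4 went from 7.83 to 11.94 without MG BLZ945 F1, Cd55 from 8.35 to 12.41 without F3, and Jaml from 6.61 to 7.29 without F2.

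Over all genes, calls between BLZ945 and CTL MG numbered 46, but 12 in the model of all 23 libraries, 193 without the filter on low counts, 238 by DESeq2, 89 with the replicate block, and 22 to 102 without 1 library. For the difference of BLZ945 effects, 5 genes were called, 94 by DESeq2, 9 without the filter, 2 with the filter of the study, 1 in the model of all 23 libraries, 1 with the replicate block, and 0 to 36 without 1 library. Between tdT- sdCAMs and MG of BLZ945 mice the count was 4113, and 2738 when only the compared groups were fitted. Against a floor of 3 counts in a library, Cd4, Cd55 and Jaml had at most 12 counts in any MG library and Prss23 at most 45 in any library, so counting error is wide for these values.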
